A study of Mus musculus with 31 samples.

Results

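The retinoblastoma pathway sets the passage from G1 to S phase, and 10 of its genes were followed here in mouse neuroblastomas: the D-type cyclins *Ccnd1*, *Ccnd2* and *Ccnd3*, their kinases *Cdk4* and *Cdk6*, the kinase inhibitors *Cdkn1a*, *Cdkn1b*, *Cdkn1c* and *Cdkn2c*, and the substrate *Rb1*. D-type cyclins activate Cdk4 and Cdk6, which phosphorylate the Rb protein and so free E2F transcription factors to turn on genes of DNA replication. Ink4 proteins such as p18 (*Cdkn2c*) bind Cdk4 and Cdk6 directly, and Cip/Kip proteins, p21 (*Cdkn1a*), p27 (*Cdkn1b*) and p57 (*Cdkn1c*), bind complexes of cyclin and kinase. In neuroblastoma, a tumor of the sympathetic nervous system, this pathway is known for high cyclin D1 and for recurrent alterations of *CDK4* in human tumors. The genes were found by symbol among the 17306 rows of the deposited table, where each of the 10 had 1 row. Of these, 9 exceeded log2 4 in at least 10 tumors, as did 9322 rows in all, and were tested; *Cdk6* did not.

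*Cdk4* was lower with either *Alk* mutation than in *MYCN* tumors, by 0.87 on the log2 scale for the mean of both (standard error, SE, 0.12). *Cdkn1a* was higher by 1.56 (SE 0.33), measured against *MYCN* tumors of which 4 of 10 were at or below log2 4. With R1279Q alone *Cdkn1a* was higher by 1.19, a call that was lost without any of 6 tumors. That value was 0.38 with R1279Q tumors of 1 mouse background and 2.64 with those of the other. *Cdkn2c* was also higher for the mean of both mutations, by 0.92 (SE 0.37), a call that was lost without any of 13 tumors. *Ccnd3* passed the threshold only with F1178L, where it was lower. *Ccnd1*, *Ccnd2*, *Cdkn1b*, *Cdkn1c* and *Rb1* differed past the threshold in none of the 4 comparisons of genotypes.

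RNA from 31 tumors was hybridized with 1 Affymetrix array per tumor, and the authors deposited log2 values normalized by GCRMA, a procedure that corrects background by probe sequence. All mice carried *TH-MYCN*, a human *MYCN* transgene driven by the tyrosine hydroxylase promoter in neural crest-derived cells. The 10 *MYCN* tumors carried the transgene without an *Alk* mutation. The 10 R1279Q and 11 F1178L tumors (*MYCN*/*Alk*) came from mice that also carried the named mutation knocked into (KI) the *Alk* receptor gene. The study's table of tumors gives the background of 18 *MYCN*/*Alk* tumors. With R1279Q, 5 came from 129S2 mice (5 males, 8.3 to 10.7 weeks old) and 3 from 129B6F1 mice (2 females and 1 male, 16.6 to 27.1 weeks). With F1178L, 4 came from 129S2 mice (2 females and 2 males, 5.1 to 6.3 weeks) and 6 from 129B6F1 mice (3 females and 3 males, 9.1 to 19.1 weeks). 129B6F1 stands for the first generation of a cross with C57Bl/6, and 129S2 for mice largely of that inbred strain. The background, sex and age of the *MYCN* tumors, of R1279Q tumors 17 and 24 and of F1178L tumor 36 are not given (the strain label of every tumor names both backgrounds), nor is whether tumors shared a mouse. Background thus cannot be told apart from age in any comparison of backgrounds, and was not accounted for in comparisons with *MYCN* tumors. Within 129S2, every F1178L tumor came from a younger mouse than every R1279Q tumor, so that mutation cannot be told apart from age there. The tumors are bulk tissue, so that fewer cells of a type and less RNA per cell cannot be told apart.

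The array medians lay between 4.22 and 4.66. Of 8 neuroblastoma markers, 7 had a named row, and *Phox2a*, *Gata3*, *Isl1*, *Th*, *Dbh* and *Mycn* exceeded log2 4 in every tumor and *Hand2* in 26 of 31. In *MYCN*/*Alk* against *MYCN* tumors, 4 of these 7 passed as higher and 0 as lower, with a median of 0.60. The *Mycn* row is that of the mouse gene, and neither it nor *Alk* expression checks the transgene or the point mutations. Of 8 endothelial and mural markers, 4 were tested and all 4 were lower in *MYCN*/*Alk* tumors, with a median of -1.59; the mean level of the 8 ran from 5.20 to 6.95 in *MYCN*, 3.51 to 7.57 in R1279Q and 4.16 to 5.56 in F1178L tumors. Of 8 macrophage markers, 6 were tested and 5 were lower (mean levels 6.54 to 7.77 in *MYCN*, at most 7.98 in R1279Q and 5.72 to 6.88 in F1178L tumors), with *Fcgr1* at or below log2 4 throughout. Of 5 fibroblast markers tested, 0 passed in *MYCN*/*Alk* or R1279Q against *MYCN* tumors and 1, *Dcn*, was higher with F1178L (2.08, limma adjusted p = 0.0405). The Schwann cell markers *Sox10*, *S100b* and *Erbb3* were at or below log2 4 in every tumor, and *Fabp7* was higher by 3.77. Neither the T and B cell markers nor those of adrenal cortex and chromaffin cells reached the level for testing. The part of these markers in the differences between genotypes described below was not tested.

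In *MYCN*/*Alk* against *MYCN* tumors, 3 of the 9 genes tested passed an adjusted p of 0.05 in limma, a linear model of every row with a shared estimate of spread; 40.7% of all 9322 rows did so. Of the 3, 2 were higher (19% of all rows) and 1 was lower (21.6%). In F1178L against *MYCN* tumors 3 of 9 passed (46.5% of all rows), in R1279Q against *MYCN* tumors 2 (17.9%), and in F1178L against R1279Q tumors 1 (8.53%). These 4 comparisons share tumors, and the first 3 share the *MYCN* tumors. The share of the 9 that passed was below that of all rows in the first 2 comparisons and above it, by less than 1 gene, in the others. The median difference over all rows was -0.04, -0.07, -0.01 and -0.06, respectively.

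**Figure D1:**
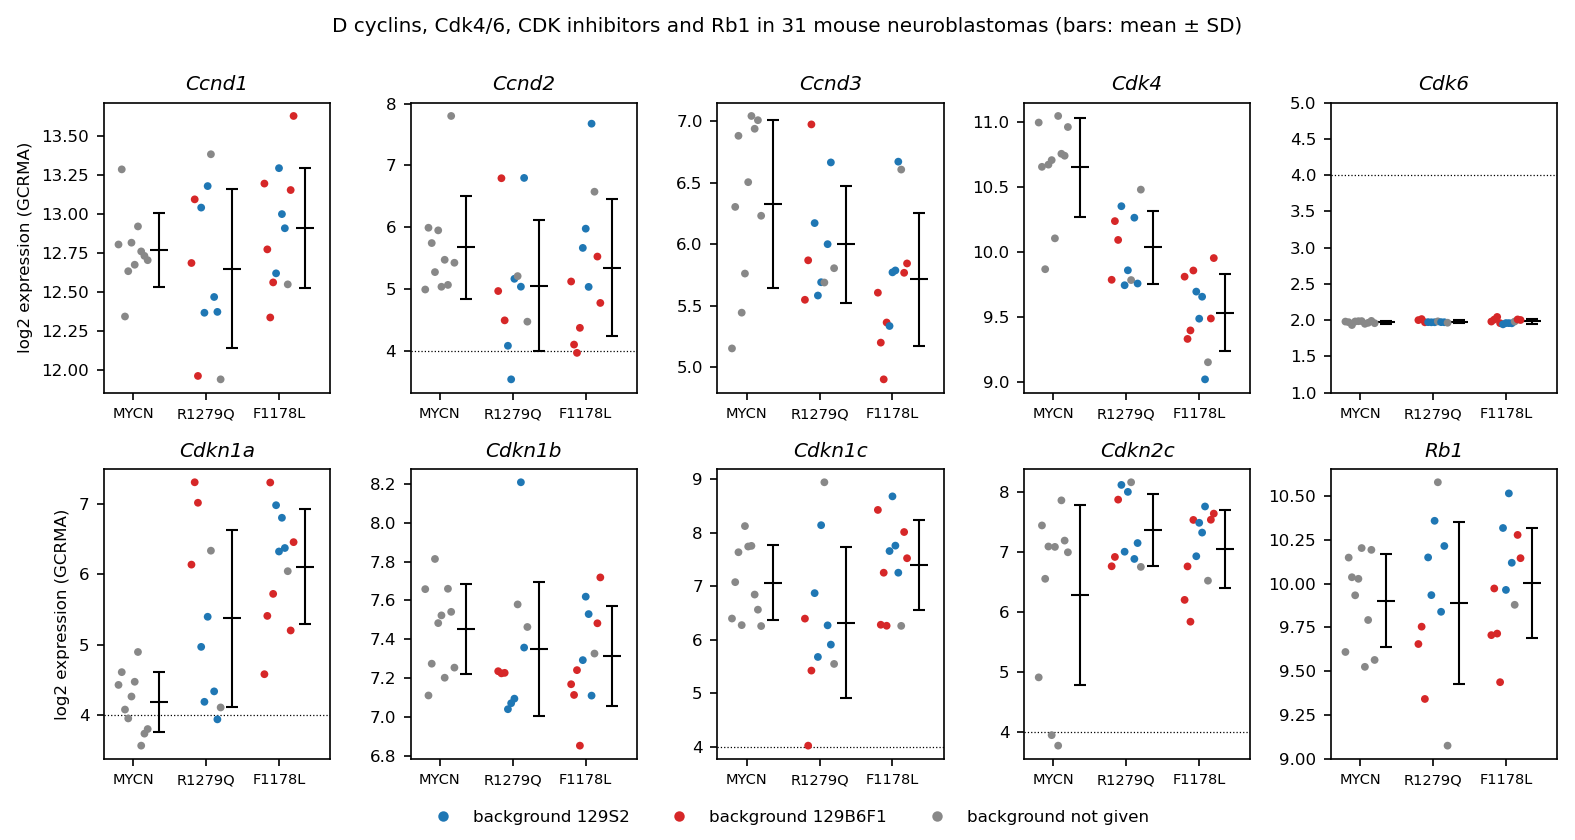
Log2 expression of the 10 genes in each of 31 tumors, by genotype (*MYCN* n = 10, R1279Q n = 10, F1178L n = 11), with points colored by background and bars for mean ± SD; each gene has its own axis, and the dotted line marks log2 4. *Cdk4* steps down from *MYCN* over R1279Q to F1178L tumors, *Cdkn1a* is higher on average with either mutation but within the *MYCN* range in 3 of 5 R1279Q tumors of 129S2, and *Cdk6* lies between 1.93 and 2.04 in every tumor.

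Of the D-type cyclins, only *Ccnd3* passed the threshold in a comparison of genotypes. *Ccnd1* encodes cyclin D1 and lies on chromosome 7. Its level was 12.77 ± 0.24 (SD, n = 10) with *MYCN* alone, 12.65 ± 0.51 with R1279Q added (n = 10) and 12.91 ± 0.39 with F1178L added (n = 11). It ran from 11.94 in R1279Q tumor 24 to 13.63 in F1178L tumor 38, and lay above 98.5% of the rows of each array. The difference between *MYCN*/*Alk* and *MYCN* tumors was 0.01 (95% interval -0.29 to 0.32, limma adjusted p = 0.953). In F1178L against R1279Q tumors it was 0.26 (95% interval -0.09 to 0.61). The 3 groups overlapped throughout.

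*Ccnd2*, cyclin D2 on chromosome 6, had one of the wider spreads. In *MYCN* tumors it ran from 4.99 to 7.80 around a median of 5.45. The highest value was that of tumor 34, and the other 9 *MYCN* tumors were at most 5.99. In R1279Q tumors it ran from 3.53 to 6.80 (mean 5.05), and in F1178L tumors from 3.96 to 7.68 around 5.12. Its spread within groups, an SD of 1.01, was wider than that of 94.0% of the rows tested, and the groups overlapped. The difference between *MYCN*/*Alk* and *MYCN* tumors was -0.48 (SE 0.37, limma adjusted p = 0.32). *Notch1* (r = 0.87) and *Nid1* (r = 0.84) were the rows most like it over the 31 tumors, and within groups r was 0.88 and 0.83. *Nid1* encodes a basement membrane protein. In tumor 34, the mean of the 4 endothelial and mural markers tested was 9.33, the highest of the *MYCN* tumors, where it ran from 7.36 upwards. Within *MYCN* tumors *Ccnd2* and this mean had a Pearson's r of 0.69 (permutation p = 0.0549, adjusted 0.539) and a Spearman's rho of 0.81 (permutation p = 0.00696, adjusted 0.222). Without the 2 tumors with the most extreme marker means r was 0.40. It was 0.53 in R1279Q and -0.23 in F1178L tumors. With the mean of 5 fibroblast markers r was 0.46, 0.85 and 0.67 in *MYCN*, R1279Q and F1178L tumors. In R1279Q tumors this relation did not pass (permutation p = 0.00198, adjusted 0.0983; Spearman's rho 0.90, permutation p = 8.20e-04, adjusted 0.0517), and without the 2 most extreme tumors r was -0.15, 0.74 and 0.24 in the 3 groups.

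*Ccnd3*, cyclin D3 on chromosome 17, ran from 5.15 to 7.04 around a median of 6.40 in *MYCN* tumors, from 5.55 to 6.97 around 5.84 in R1279Q tumors and from 4.90 to 6.67 around 5.77 in F1178L tumors. The ranges overlapped, and only F1178L tumor 4 lay below every *MYCN* tumor. In F1178L against *MYCN* tumors it was lower by 0.61 (SE 0.24, limma adjusted p = 0.0385). This call was lost with no filter on low values (adjusted p = 0.0684), the methods' t-test (0.0695), array weights (-0.42, adjusted p = 0.0971) and F1178L tumors of 129S2 alone (-0.44, adjusted p = 0.299). It was also lost without any of F1178L tumors 2, 4, 11 and 28 or *MYCN* tumors 22, 26, 32, 33 and 34 (adjusted p at most 0.0786). With R1279Q the difference was -0.33 (adjusted p = 0.374), and for both mutations -0.47 (adjusted p = 0.0779). The latter passed without any of 5 tumors, *MYCN* 3 and 23, R1279Q 9 and F1178L 31 and 36 (adjusted p from 0.0218).

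*Cdk4*, the kinase of cyclin D on chromosome 10, passed the threshold in all 4 comparisons of genotypes over all tumors, with overlapping groups. Its first exon is preceded by a stretch with several E-boxes (letters CACGTG), the sequence that dimers of MYC family proteins with Max bind, and this stretch is shown because the gene passed in both comparisons of a mutation with *MYCN* tumors. RefSeq (GRCm38.p6) places it at chr10:127063285-127063534 on the plus strand. The 250 bases before the start read, with E-boxes in capitals:

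Cdk4: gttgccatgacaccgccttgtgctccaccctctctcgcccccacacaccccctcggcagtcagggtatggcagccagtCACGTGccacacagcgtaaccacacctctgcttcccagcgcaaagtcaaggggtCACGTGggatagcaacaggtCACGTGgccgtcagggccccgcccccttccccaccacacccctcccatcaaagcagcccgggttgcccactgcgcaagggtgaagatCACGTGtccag

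It holds 4 E-boxes, at -172, -118, -98 and -11 from the start. Of 32851 mouse promoter stretches of this length, 6.02% held at least 1 E-box on either strand, the motif being its own reverse complement. There were 7 stretches (0.0213%) with 4 or more. That cutoff equals the count in *Cdk4* itself, so that this share is a description. Sites of E2F (TTTCCCGC, TTTGGCGC or TTTCGCGC, in 1.53% of stretches), CRE (TGACGTCA, 1.55%) and AP-1 (TGANTCA, 6.75%), searched on both strands, had no match here. The matches describe letters only. The stretch before *Cdk6*, which was below log2 4 in every tumor, also held an E-box, at -220. The row of the mouse gene *Mycn* was higher where *Cdk4* was lower. Against *MYCN* tumors it was higher by 1.96 with R1279Q (limma adjusted p = 2.59e-04) and by 3.18 with F1178L (3.09e-08). In F1178L against R1279Q tumors it was higher by 1.22 (adjusted p = 0.0254). The part of *Mycn* or of the E-boxes in the level of *Cdk4* was not tested.

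In *MYCN* tumors *Cdk4* ran from 9.87 to 11.05 around a median of 10.73, with a mean of 10.65 ± 0.38 (SD, n = 10). In R1279Q tumors it ran from 9.75 to 10.48 around 9.98 (mean 10.04 ± 0.28, n = 10). In F1178L tumors it ran from 9.02 to 9.96 around 9.49 (mean 9.53 ± 0.30, n = 11). Of the 11 F1178L tumors, 10 lay below the lowest *MYCN* tumor, tumor 22, and only tumor 38 lay above it. Of the R1279Q tumors 5 lay below tumor 22, and 8 F1178L tumors lay below every R1279Q tumor. The difference from *MYCN* tumors was -1.12 with F1178L (SE 0.14, limma adjusted p = 4.09e-07), a 2.17-fold lower level, and -0.62 with R1279Q (SE 0.14, adjusted p = 0.00371), a 1.53-fold lower level. Leaving out each tumor in turn, these values stayed between -1.21 and -1.07 and between -0.70 and -0.57, with adjusted p values of at most 0.00906. With *MYCN*/*Alk* tumors of 129S2 alone they were -1.19 (adjusted p = 1.04e-04) and -0.66 (adjusted p = 0.019), and with those of 129B6F1 alone -1.01 (adjusted p = 6.50e-04) and -0.61 (adjusted p = 0.0934, 3 R1279Q tumors).

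Between the mutations *Cdk4* was lower with F1178L by 0.50 (SE 0.14, limma adjusted p = 0.028). This call was close to the threshold. It was lost with equal array medians (adjusted p = 0.0538), with background as a covariate (-0.47, adjusted p = 0.0552) and with background and sex (-0.45, adjusted p = 0.0843), and without any of R1279Q tumors 13, 18 and 24 or F1178L tumors 31 and 36 (adjusted p at most 0.0642). Within 129S2 the 4 F1178L tumors lay below all 5 R1279Q tumors, with a difference of -0.53 (95% interval -0.93 to -0.13, adjusted p = 0.079). *Cdk6*, below log2 4 in every tumor, separated these groups in the same way, and the share of all rows that did so was not counted. Within 129B6F1 the difference in *Cdk4* was -0.40 (95% interval -0.82 to 0.03, adjusted p = 0.534).

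**Figure D2:**
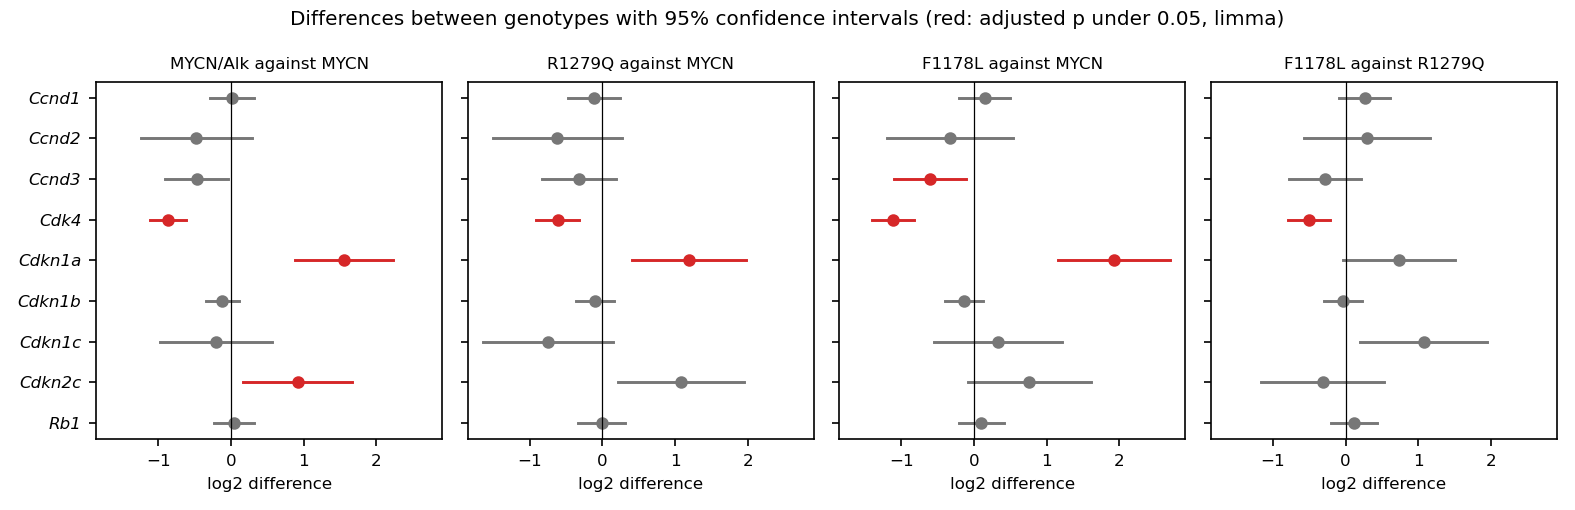
Differences in log2 expression with 95% confidence intervals for the 9 genes tested, in 4 comparisons of genotypes fitted together with limma (10 *MYCN*, 10 R1279Q and 11 F1178L tumors); red marks an adjusted p under 0.05. *Cdk4* lies left of 0 in all 4 panels, and *Cdkn1a* right of 0 with red in the first 3.

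*Cdk4* was also set beside genes of proliferation, tumor by tumor. Over the 31 tumors, the rows most like it were *Apex1* (r = 0.95), a DNA repair endonuclease, and *Fbxl14* (r = 0.94), an F-box protein, and within groups r was 0.87 and 0.82. Against the mean of 14 genes of G2 and M phase, Pearson's r was 0.83 in *MYCN* tumors, 0.81 in R1279Q tumors and 0.89 in F1178L tumors. In F1178L tumors this passed over the 189 relations of 9 genes, 7 lists and 3 genotypes (permutation p = 2.40e-04, adjusted 0.0454; Spearman's rho 0.87, p = 8.10e-04, adjusted 0.0517), the only one to do so. Without the 2 tumors most extreme in the list, r was 0.83 there and 0.82 in R1279Q tumors. In *MYCN* tumors it was -0.18, so that the relation there rested on 2 tumors. The R1279Q and F1178L groups pool both backgrounds. In F1178L tumors the mean of G2 and M phase genes ran from 8.21 to 9.01 in 129S2 and from 8.86 to 10.06 in 129B6F1. *Cdk4* averaged 9.47 and 9.64 in these, and the part of background in the relation was not tested. Against 18 E2F target genes r was 0.78, 0.69 and 0.82, without passing the adjustment (adjusted p = 0.275, 0.461 and 0.0983 by permutation). *MYCN* tumor 22, which had the lowest *Cdk4* of its group, also had its lowest mean of E2F targets (8.87) and of G2 and M phase genes (8.87). *Cdk4* and the mean of 4 endothelial and mural markers had an r of 0.45, 0.31 and 0.12 in the 3 groups (adjusted p at least 0.791 by permutation).

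**Figure D3:**
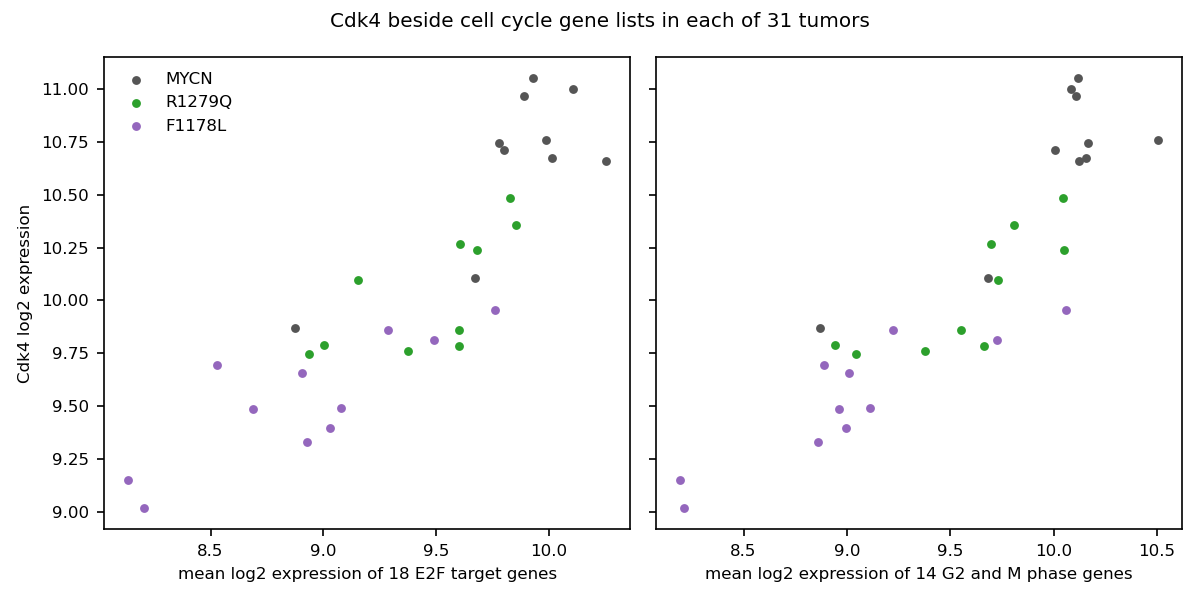
*Cdk4* expression (y axis, log2) against the mean log2 expression of 18 E2F target genes (left) and of 14 G2 and M phase genes (right), with 1 point per tumor colored by genotype (*MYCN* n = 10, R1279Q n = 10, F1178L n = 11). Within F1178L tumors, with backgrounds pooled, *Cdk4* and the G2 and M phase mean go together (r = 0.89), and among *MYCN* tumors, tumor 22 is lowest on every axis.

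*Cdk6*, the other kinase of cyclin D, on chromosome 5, was between 1.93 and 2.04 in all 31 tumors. These values lay between the percentiles 2.32 and 4.02 of their arrays, and exceeded log2 4 in 0 of 31 tumors. No difference was therefore given for it.

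Among the Cip/Kip inhibitors, *Cdkn1a* was the one that differed between genotypes. It encodes p21, a textbook target of p53, and lies on chromosome 17. RefSeq lists a pair of starts, and the upstream one, at chr17:29090729-29090978 on the plus strand (GRCm38.p6), is shown because matches to the p53 consensus decamer stand in it. This search was chosen after the sequence had been seen, and the matches are in capitals:

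Cdkn1a: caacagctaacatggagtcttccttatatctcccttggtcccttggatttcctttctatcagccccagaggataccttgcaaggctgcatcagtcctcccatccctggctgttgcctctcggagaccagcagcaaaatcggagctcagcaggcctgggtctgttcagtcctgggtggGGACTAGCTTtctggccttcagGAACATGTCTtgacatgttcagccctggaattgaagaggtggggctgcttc

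They begin at -73 and -51 from this start. At least 1 match on either strand, the motif being its own reverse complement, stood in 7.13% of all promoter stretches. The stretch before the other start had none, and neither stretch held the E-box, E2F, CRE or AP-1 letters.

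In *MYCN* tumors *Cdkn1a* was near the filter level of log2 4, from 3.57 to 4.90 around a median of 4.18. It exceeded that level in 6 of 10 tumors, so that the row passed the filter mainly through *MYCN*/*Alk* tumors (20 of the 26 tumors above it). In R1279Q tumors it ran from 3.95 to 7.31 around 5.19, and in F1178L tumors from 4.59 to 7.30 around 6.33. Of the F1178L tumors 10 of 11 lay above every *MYCN* tumor, and of the R1279Q tumors 6 of 10 did so. With F1178L the difference from *MYCN* tumors was 1.93 (SE 0.38, limma adjusted p = 1.47e-04). With 4 of the 10 *MYCN* tumors at or below log2 4, a floor set for this report, a fold against them could be too small and none is given. Without any single tumor it stayed between 1.81 and 2.08 (adjusted p at most 4.06e-04), and it was 2.44 with F1178L tumors of 129S2 alone and 1.60 with those of 129B6F1 alone. With R1279Q the difference was 1.19 (SE 0.39, adjusted p = 0.0298), and it moved with the tumors entered. It was 0.38 with R1279Q tumors of 129S2 alone (adjusted p = 0.271) and 2.64 with those of 129B6F1 alone (adjusted p = 0.00168). The R1279Q call was also lost with no filter (adjusted p = 0.0581), with the methods' t-test (0.0569), and without any of R1279Q tumors 5, 8, 9 and 17 or *MYCN* tumors 33 and 34 (adjusted p at most 0.0597). The rows most like *Cdkn1a* were *Dbh* (r = 0.82), the enzyme that makes noradrenaline, and *Trappc2l* (r = 0.81), and within groups r was 0.64 for both.

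*Cdkn1a* was also the 1 gene of the 9 to pass between backgrounds, and only within R1279Q tumors. With R1279Q, the 5 tumors of 129S2 were at 3.95, 4.19, 4.34, 4.97 and 5.40, and the 3 of 129B6F1 at 6.14, 7.02 and 7.31, without overlap. The share of all rows without overlap was not counted. *Cdkn1a* was higher in 129B6F1 by 2.25 (SE 0.49, limma adjusted p = 0.0466), the 1 call among the 9 genes where 0.59% of all rows passed. It was lost with no filter, quantile normalization, equal array medians, the methods' t-test and array weights (adjusted p from 0.056 to 0.142), and without any of R1279Q tumors 8, 9, 13, 14, 18 and 19 (0.0591 to 0.145). It was 2.01 without tumor 8, which carried a gain of chromosome 17. The mean of 9 p53 target genes ran from 5.06 to 5.41 in these 129S2 tumors and from 5.79 to 6.21 in those of 129B6F1, and its part in the difference was not tested. With F1178L, the 4 tumors of 129S2 were at 6.33, 6.38, 6.80 and 6.98, and the 6 of 129B6F1 at 4.59, 5.21, 5.41, 5.72, 6.46 and 7.30. The difference was -0.84 (SE 0.43, adjusted p = 0.23), and 0 of 9 genes passed (6.31% of all rows). The difference between these background effects was -3.09 (SE 0.65, adjusted p = 0.0738), so that it did not pass, and 0 of 9 genes did (0.0751% of all rows, 1420 at an unadjusted p under 0.05). Without F1178L tumor 4 it was -3.39 and passed (adjusted p = 0.0225), and without any other of the 18 tumors the adjusted p was at most 0.173. With R1279Q the 129B6F1 mice were older, so that age cannot be told apart from background there. R1279Q tumors of 129S2 were all from males and those of 129B6F1 from 2 females and 1 male. That male's tumor, tumor 9, was at 7.02, against 3.95 to 5.40 in the 129S2 males. The part of sex in the difference was not tested.

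Within 129S2, *Cdkn1a* was higher with F1178L than with R1279Q by 2.05 (SE 0.45, limma adjusted p = 0.0121), and all 4 F1178L tumors lay above all 5 R1279Q tumors. This was the 1 of 9 genes to pass (11.7% of all rows), and it passed without each tumor of the comparison (adjusted p at most 0.0453). The F1178L mice were younger there (5.1 to 6.3 against 8.3 to 10.7 weeks) and of both sexes, and the R1279Q mice all male. Mutation thus cannot be told apart from age in this comparison. The share of all rows without overlap was not counted. Within 129B6F1 the difference was -1.04 (adjusted p = 0.483), and 0 of 9 genes passed in limma there (0% of all rows, with 909 at an unadjusted p under 0.05 and 8 called with trended and robust moderation). Over all tumors it was 0.73 (95% interval -0.03 to 1.50, adjusted p = 0.205). Array weights made it 1.27 (adjusted p = 0.00319).

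**Figure D4:**
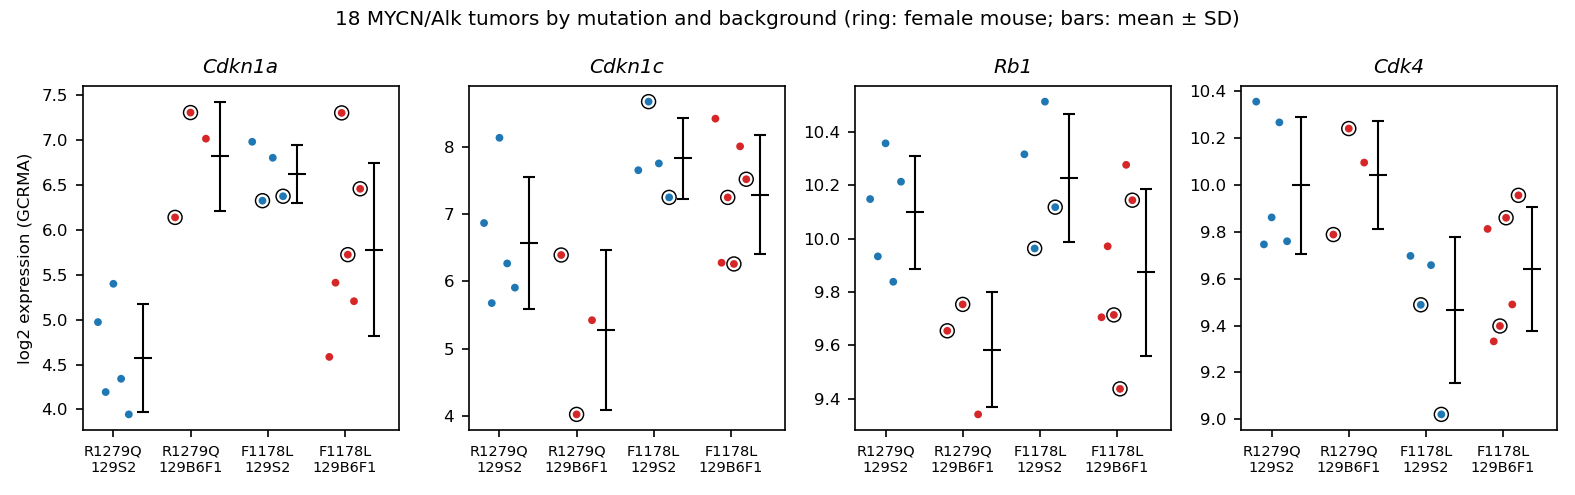
Log2 expression of *Cdkn1a*, *Cdkn1c*, *Rb1* and *Cdk4* in the 18 *MYCN*/*Alk* tumors of known background (R1279Q 5 of 129S2 and 3 of 129B6F1, F1178L 4 and 6), with blue for 129S2, red for 129B6F1, rings for female mice and bars for mean ± SD. *Cdkn1a* is higher in 129B6F1 with R1279Q (6.82 against 4.57) and lower on average with F1178L (5.78 against 6.62).

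*Cdkn1b* (p27, chromosome 6), an inhibitor regulated largely at the protein level, was among the steadier genes. Its means were 7.45 ± 0.23, 7.35 ± 0.35 and 7.31 ± 0.26 in *MYCN*, R1279Q and F1178L tumors, and its range over the 31 tumors was 6.85 to 8.21. The difference between *MYCN*/*Alk* and *MYCN* tumors was -0.12 (95% interval -0.34 to 0.10, limma adjusted p = 0.4). Only R1279Q tumor 18 stood apart, at 8.21, with the other R1279Q tumors at most 7.58.

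*Cdkn1c* (p57), an imprinted inhibitor on chromosome 7, had the widest spread within groups of the 9 genes (SD 1.03). It ran from 6.25 to 8.12 around 6.96 in *MYCN* tumors, from 4.02 to 8.94 around 6.09 in R1279Q tumors and from 6.26 to 8.68 around 7.52 in F1178L tumors. Neither mutation differed from *MYCN* tumors past the threshold (-0.75 and 0.33, adjusted p = 0.242 and 0.548 from limma). Between F1178L and R1279Q tumors the difference was 1.08 (SE 0.43, adjusted p = 0.104). That difference passed without R1279Q tumor 17, the highest of all at 8.94 (1.37, adjusted p = 0.0293), after adding background to the model of 18 tumors (1.62, adjusted p = 0.0351), and with background and sex (1.68, adjusted p = 0.0479). In 129S2 alone it was 1.26 (adjusted p = 0.151), and in 129B6F1 alone 2.01 (adjusted p = 0.272). With R1279Q tumors of 129B6F1 alone the difference from *MYCN* tumors was -1.78 (adjusted p = 0.0429).

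*Cdkn2c*, the Ink4 inhibitor p18 on chromosome 4, was split within the *MYCN* group. Tumors 32 and 25 were below log2 4 and tumor 3 at 4.92, while the other 7 *MYCN* tumors lay between 6.56 and 7.86. R1279Q tumors ran from 6.76 to 8.16 around 7.08, and F1178L tumors from 5.84 to 7.76 around 7.33, so that the 7 overlapped with both. The difference between *MYCN*/*Alk* and *MYCN* tumors was 0.92 (SE 0.37, limma adjusted p = 0.0443). It was 0.64 without tumor 32 (adjusted p = 0.131), 0.66 without tumor 25 (0.127) and 0.77 without tumor 3 (0.0994), and it no longer passed without any of 10 *MYCN*/*Alk* tumors, R1279Q 9, 13, 16 and 17 and F1178L 11, 29, 30, 31, 37 and 38. It was likewise lost with no filter (adjusted p = 0.081), the methods' t-test (0.0553) and *MYCN*/*Alk* tumors of either background alone (0.0767 and 0.306). For single mutations it was 1.08 with R1279Q (adjusted p = 0.0754) and 0.76 with F1178L (adjusted p = 0.134). The former passed with array weights (1.05, adjusted p = 0.0451) and without *MYCN* tumor 33 (1.25, adjusted p = 0.0429).

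*Rb1*, the substrate on chromosome 14, was at 9.90 ± 0.26, 9.89 ± 0.46 and 10.00 ± 0.31 in *MYCN*, R1279Q and F1178L tumors. The difference between *MYCN*/*Alk* and *MYCN* tumors was 0.04 (95% interval -0.23 to 0.32, limma adjusted p = 0.819). In 129B6F1 against 129S2 tumors, with mutation in the model, it was -0.42 (SE 0.13, adjusted p = 0.0608), and 0 of the 9 genes passed (4.99% of all rows). The 3 R1279Q tumors of 129B6F1 lay below the 5 of 129S2, and 3 of 6 F1178L tumors of 129B6F1 lay below the 4 of 129S2. How many of all rows separate in this way was not counted. The difference passed without F1178L tumor 37 (-0.47, adjusted p = 0.0255) or tumor 38 (-0.46, adjusted p = 0.0471). For *Ccnd2* the difference between 129B6F1 and 129S2 with F1178L was -1.45 (95% interval -2.75 to -0.15), without passing (adjusted p = 0.155).

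Array-CGH calls of the study's table touched a chromosome of these genes in 16 cases, all among the 9 tumors of 129B6F1, and none was listed for the 9 tumors of 129S2. In 4 of the 16 the tumor lay outside the range of the 129B6F1 tumors without that call, in the direction of the call. Of all 9322 rows tested, whatever their chromosome, 7.33% to 16.8% did so in these tumors and directions, and 3 of the 4 values came from R1279Q tumor 8. That tumor also had the highest mean of the endothelial and mural (9.85) and macrophage markers tested (9.45) of all 31 tumors, and their part in its values was not tested. *Cdkn1a* was at 7.30 and 7.31 in the tumors with a gain of chromosome 17 (F1178L tumor 4 and R1279Q tumor 8), against 4.59 to 7.02 in the other 7. *Cdk4* was at 10.24 in tumor 8, which had a gain of chromosome 10, against 9.33 to 10.09 in the other 8. *Ccnd2* was at 6.79 in tumor 8, with a gain of chromosome 6, against 3.96 to 5.52, but tumor 2, with the same gain, was at 4.10. *Ccnd3*, also on chromosome 17, was at 4.90 in tumor 4, below the other 7 tumors (5.20 to 6.97), and at 5.87 in tumor 8. *Cdkn2c* was at 6.76, 6.92 and 6.77 in the 3 tumors with a loss of chromosome 4, within the range of the other 6 (5.84 to 7.87, median 7.54). *Rb1* was at 9.97 and 9.75 in the tumors with a loss of chromosome 14, within the range of the others. *Cdkn1b* with a gain of chromosome 6 and *Cdk6* with a loss of chromosome 5 also stayed within range. With 1 to 3 tumors per chromosome, these values are a description.

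Downstream of these genes, most listed genes of replication and mitosis were lower in *MYCN*/*Alk* tumors as the mean of both mutations. Nearly all were lower with F1178L, and a minority with R1279Q. E2F targets, the replication genes that Rb restrains, were lower in 15 of 18 tested and higher in 0, with a median of -0.62 (-0.04 over all rows tested, of which 21.6% were lower). Among them were *Slbp*, the histone mRNA-binding protein (-0.65, limma adjusted p = 2.07e-05), *Ung*, uracil-DNA glycosylase (-1.25), *Mcm7*, a subunit of the replicative helicase (-0.73), and *Rfc4*, of the clamp loader (-0.72). With F1178L 17 of 18 were lower (26.4% of all rows) and with R1279Q 4 of 18 (7.04%). Of 14 genes of G2 and M phase 10 were lower, with a median of -0.59, among them the checkpoint kinase *Bub1b* (-1.03), the kinesin *Cenpe* (-1.19), *Cdc20*, an activator of the anaphase-promoting complex (-0.87), and *Plk1*, polo-like kinase (-1.12). They numbered 14 of 14 with F1178L and 2 of 14 with R1279Q. Between the mutations, 5 of 18 E2F targets and 3 of 14 G2 and M phase genes were lower with F1178L (8.53% of all rows passed either way). Within 129S2 these were 8 and 3 (11.7% of all rows), and within 129B6F1 0 and 0 (0%).

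Among the regulators, against 21.6% of all rows lower and 19% higher, 6 of 11 pocket proteins and E2F factors were lower and 0 higher, such as *E2f1* (-0.74, limma adjusted p = 0.0128), *E2f6* (-0.30), *E2f8* (-0.60) and *Tfdp1*, a partner of E2F (-0.27). Of 6 genes of the DREAM and MuvB complexes, which silence or activate cell cycle genes, 3 were lower: the histone-binding protein *Rbbp4* (-0.36), *Lin54* (-0.40) and the mitotic activator *Foxm1* (-0.77). Cyclin E and Cdk2 genes went both ways. *Skp2*, the F-box protein that marks p27 for destruction, was lower by 1.16 (adjusted p = 7.39e-07), *Cdk2* by 0.70 and the phosphatase *Cdc25a* by 0.57, whereas *Ccne1*, cyclin E1, was higher by 0.63 (adjusted p = 0.0195) and *Fbxw7*, which marks cyclin E for destruction, by 0.46; these are 5 of 7 tested. Of the CDK-activating kinase, *Cdk7* was higher by 0.29 and *Ccnh* lower by 0.27, while *Mnat1* did not pass. *Cdk8*, a kinase of the Mediator complex, was lower by 0.67 and alone of 5 other cyclins and kinases tested. Of the other genes listed as CDK inhibitors, by name, only *Cdkn3* reached the level for testing, and its difference was -0.49 (adjusted p = 0.318). Within 129S2 *Cdkn3* passed as lower with F1178L than with R1279Q (-1.66, where 11.7% of all rows passed either way). Within F1178L it passed as higher in 129B6F1 than in 129S2 (1.82, 6.31% of all rows). Of 7 p53 target genes besides *Cdkn1a*, 1 was higher, *Phlda3* (1.34, adjusted p = 0.00561), and 0 were lower, a share of higher genes below the 19% of all rows. With F1178L, where 20.1% of all rows were higher, *Phlda3*, *Zmat3* (0.43) and *Trp53inp1* (0.46) were higher and *Mdm2*, the ligase that degrades p53, was lower (-0.41, adjusted p = 0.0158). *Cdkn1a* and the mean of these 7 genes had an r of 0.55, 0.72 and -0.28 in *MYCN*, R1279Q and F1178L tumors, with adjusted p values of at least 0.275 by permutation. In R1279Q tumors the mean of the 7 neuroblastoma markers ran from 8.74 to 9.42 in 129S2 and from 9.20 to 9.84 in 129B6F1, and correlations pooled both backgrounds. Between *Cdkn1a* and this mean r was 0.08, 0.88 and -0.06 in *MYCN*, R1279Q and F1178L tumors. In R1279Q tumors this relation did not pass (permutation p = 6.50e-04, adjusted 0.0614; Spearman's rho 0.92, permutation p = 5.60e-04, adjusted 0.0517), and r was 0.84 without the 2 tumors most extreme in the markers.

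**Figure D5:**
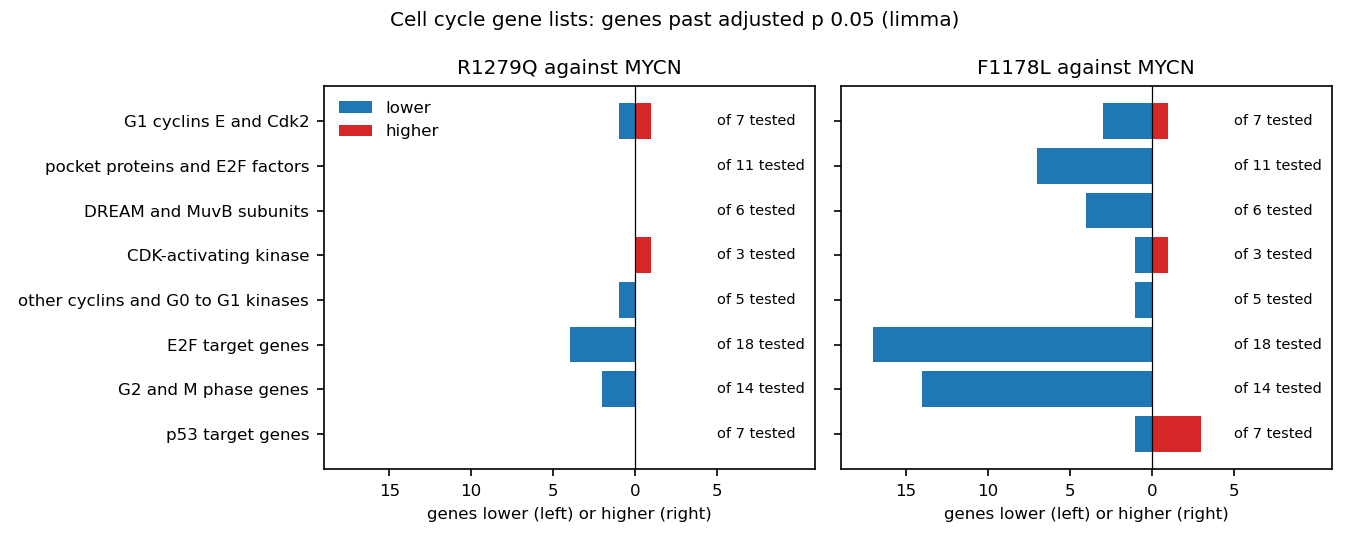
Number of genes of 8 cell cycle and p53 lists that were lower (blue, left) or higher (red, right) at an adjusted p under 0.05 in limma, in R1279Q (left panel) and F1178L tumors (right panel) against *MYCN* tumors, with the number tested beside each bar. Of E2F targets, 4 of 18 were lower with R1279Q and 17 of 18 with F1178L. Whether the mutations differ was tested gene by gene, where 5 of 18 were lower with F1178L (8.53% of all rows passed either way). Within 129S2 this was 8 of 18 (11.7% of all rows), and within 129B6F1 0 of 18 (0%).

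Few pairs of the 9 genes varied together within genotypes. Of 108 correlations, 36 pairs in each of 3 genotypes, 8 had a permutation p under 0.05 and 1 passed after adjustment. In F1178L tumors *Ccnd2* and *Ccnd3* had an r of 0.88 (permutation p = 3.60e-04, adjusted 0.0389), with a Spearman's rho of 0.70 (permutation p = 0.0205, adjusted 0.443) and an r of 0.66 without the 2 tumors most extreme in *Ccnd2*. The F1178L group pools both backgrounds. In 129B6F1 against 129S2 tumors with F1178L the differences were -1.45 for *Ccnd2* and -0.44 for *Ccnd3*, neither past the threshold. The part of background in this relation was not tested. *Cdk4* and *Rb1* in *MYCN* tumors had an r of -0.67 (permutation p = 0.0327, adjusted 0.589), *Ccnd1* and *Rb1* in R1279Q tumors 0.78 (permutation p = 0.0082, adjusted 0.443). All values of a tumor come from 1 array. For the remaining genes, the rows most like them over the 31 tumors were *Pacs2* and *Cenpt* for *Ccnd1* (r = 0.73 and 0.71), *Irf3* and *Angptl4* for *Ccnd3* (0.72 and 0.69), *Sos1* and *Msl2* for *Cdkn1b* (0.66 and 0.62), *Vldlr* and *Fam184b* for *Cdkn1c* (0.67 and 0.67), *Tnrc18* and *Caprin2* for *Cdkn2c* (0.69 and 0.65) and *Clcn3* and *Mecom* for *Rb1* (0.73 and 0.67).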

How the data were processed

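RNA was hybridized to Affymetrix Mouse Genome arrays, and the authors normalized them by GCRMA with Brainarray annotations and deposited log2 values, 1 column per tumor. The GCRMA version and the build are not given in the sources used here. The deposited values were used as they stand, and their precision rests on how many tumors there are and how far a row exceeds background. Of 17306 rows, 842 lacked a single symbol in the platform annotation and were not named. Tumors were grouped by their labels, and the tumor number linked them to background, sex, age and CGH calls in the study's table. limma 3.58.1 in R 4.3.3 fitted 3 genotypes, and mutation with background in 18 tumors, over 9322 rows above log2 4 in at least 10 tumors, with two-sided tests and Benjamini-Hochberg adjustment at 0.05. Correlations used 100000 permutations within each genotype, with backgrounds pooled. The fits were tested on simulated data. Tests treat tumors as independent, so p values are too small if some shared a mouse. Genes named were the 10 genes, up to 4 genes of each list with the lowest p in *MYCN*/*Alk* against *MYCN*, and the 2 rows most like each gene; *Trp53inp1* and the tumors singled out were chosen after their values were seen. The genes and lists were chosen with earlier results of these data known. Alternatives were other filters, normalizations, tests, covariates and subsets, and leaving out each tumor. Correlations with lists and the p53 motif search were added after the data were seen. Promoters came from RefSeq (GRCm38.p6), which held 6 of the 10 genes. Python 3.11.15 with matplotlib 3.10.9 drew the figures.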

Additional observations from a re-analysis of the deposited data

Results flagged for a closer look

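In 45 sets of values, each 1 gene in 1 group of 4 to 10 tumors, 3 had a tumor far from the others by Dixon's test, and chance alone sets apart about 1 in 20 groups. *Ccnd2* was at 7.80 in *MYCN* tumor 34, with the other *MYCN* tumors between 4.99 and 5.99. *Cdkn1b* was at 8.21 in R1279Q tumor 18, far from the other R1279Q tumors (7.04 to 7.58) and from the other R1279Q tumors of 129S2 (7.04 to 7.36), which counts the same tumor again.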

How the results depend on the processing

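Among 2222 differences of the 9 genes under 46 settings, 31 of which left out 1 tumor, 2145 stayed on their side of the threshold, 60 lost it, 17 reached it and 0 of those called turned sign; 95 turned sign while below the threshold in both. Another of the 46 settings also left out *MYCN* tumor 26, so that this fit, with the *Ccnd3* call it lost in F1178L against *MYCN*, was entered again. Counts of the 9 genes that passed moved as follows. In *MYCN*/*Alk* against *MYCN*, 3 became 2 with no filter, the methods' t-test and tumors of either background alone (2 to 4 leaving out a tumor). In F1178L against *MYCN*, 3 became 2 with no filter, the t-test, array weights, without *MYCN* tumor 26 and with 129S2 tumors only (2 to 3). In R1279Q against *MYCN*, 2 became 1 with no filter, the methods' t-test and 129S2 tumors only, 3 with array weights, and 1 to 2 when leaving out a tumor. In F1178L against R1279Q, 1 became 0 with equal array medians and 2 with array weights (0 to 2 leaving out a tumor). Between backgrounds 0 ran from 0 to 1, and likewise for the difference of background effects. Within R1279Q, 1 became 0 with no filter, quantile normalization, equal medians, the t-test and array weights (0 to 1). In F1178L against R1279Q within 129S2, 1 became 3 with array weights. The cause was not tested. Over all rows, counts of calls moved by over 1.5 times as follows. *MYCN*/*Alk* against *MYCN* gave 3793 calls and F1178L against *MYCN* 4333, and with 129B6F1 tumors alone 2304 and 2207. R1279Q against *MYCN* gave 1667, and 3479 with array weights and 683 with 129B6F1 tumors alone. F1178L against R1279Q gave 795, and 481 with no filter, 485 with equal medians, 340 with the t-test, 3042 with array weights, 449 with background, 220 with background and sex, and 346 to 1184 leaving out a tumor. Between backgrounds 465 became 274 with no filter, 237 with equal medians, 62 with the t-test, 888 with array weights, 195 with sex, 1 with age, and 115 to 849 leaving out a tumor. Within F1178L 588 became 54 with the t-test and 1313 with array weights (81 to 1104), and within R1279Q 55 became 17 and 3 (16 to 200). For the difference of background effects 7 became 1 with equal medians or array weights (1 to 53). In F1178L against R1279Q, 1092 within 129S2 became 2181 with the t-test and 3284 with array weights (230 to 1004), and 0 within 129B6F1 became 1 with no filter and 8 with trended and robust moderation (0 to 48). Groups of 3 to 6 tumors limit the comparisons of backgrounds. No paired analysis was possible because tumor numbers are unique and pair no tumors across groups. The t-test gave no value for the difference of background effects.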
